A study of Mus musculus with 10 samples.

Results

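The enzymes of fatty acid synthesis and desaturation were followed in lung tumours with and without deletion of Glut1, a facilitated glucose transporter. The 10 genes were taken by symbol from the deposited count table, which lists 39017 genes, and comprise Acly, Acaca and Fasn, the elongases Elovl1, Elovl5 and Elovl6, and the desaturases Scd1, Scd2, Fads1 and Fads2. Each symbol matched 1 row, and all 10 genes passed the filter on low counts that left 15922 genes for testing. The series holds 10 polyA RNA sequencing libraries, 5 from KP control tumours and 5 from KPG1 tumours labelled Glut1-KO. All mice had a C57BL/6 background and carried, among other alleles, p53 Fl/Fl, and the KPG1 mice also carried Glut1 Fl/Fl. Tumours were started with Ad5CC10-Cre, an adenovirus given into the trachea whose promoter restricts Cre to CC10-positive airway cells, and were dissected 20 weeks and 1 day later. Cells that did not derive from an infected cell therefore kept an intact Glut1 gene in both groups. The tumours were dissociated and immune cells were removed with magnetic beads against CD45. The genotype label of the controls reads heterozygous fl/wt and that of the KPG1 libraries homozygous fl/fl, although the design text speaks of wild-type Glut1.

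Fatty acids are built in the cytosol from citrate that leaves the mitochondria, much of it derived from glucose. Acly cleaves citrate to acetyl-CoA, Acaca carboxylates acetyl-CoA to malonyl-CoA, and Fasn condenses malonyl-CoA units into palmitate. Elovl enzymes lengthen the chain, Scd enzymes convert saturated chains to monounsaturated ones such as oleate, and Fads enzymes add double bonds to dietary polyunsaturated chains. In the lung, alveolar type 2 (AT2) cells use palmitate for the phospholipid of surfactant, and the transcription factor SREBP-1 drives many of these genes.

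The 10 libraries held 35.3 to 49.8 M counts (M, mega). The labels give male for the 5 controls and for Glut1-KO replicates 4 and 5 and female for Glut1-KO replicates 1 to 3, so that sex and genotype cannot be told apart in full. The deposited names carry a further number, shared by controls 1, 2 and 5, by controls 3 and 4, and by Glut1-KO 4 and 5. No label says whether a shared number means 1 animal, so the p-values measure the spread between libraries, which may be smaller than that between mice. Slc2a1, the gene of Glut1, averaged 94.8 ± 16.9 CPM (counts per M after TMM scaling, SD, n = 5) in controls against 66.5 ± 30.1 in the libraries labelled Glut1-KO (log2 fold change −0.62, SE 0.29, limma adjusted p = 0.658). The 3 female libraries labelled Glut1-KO averaged 45.8 CPM and lay below all controls. The 2 male ones averaged 97.6 CPM and lay within the control range, which goes against their label, and the group is therefore called "labelled Glut1-KO" throughout. AT2 markers were abundant, with a summed level of 29621 to 87930 CPM, and the low end was control replicate 2, where the other controls had at least 58086. That library also had the highest summed level of proliferation genes, 659 CPM, against 265 to 374 in the other controls and 237 to 406 in the libraries labelled Glut1-KO. In bulk RNA, fewer cells of a type and less RNA per cell cannot be told apart.

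The genes are spread over 5 chromosomes (GENCODE M21, GRCm38, all protein coding). Fasn (ENSMUSG00000025153) is at chr11:120805846-120824547 on the minus strand, Acly (ENSMUSG00000020917) at chr11:100476353-100528000 on the minus strand and Acaca (ENSMUSG00000020532) at chr11:84129672-84401651 on the plus strand. Scd2 (ENSMUSG00000025203, chr19:44293674-44306864, plus) and Scd1 (ENSMUSG00000037071, chr19:44394455-44407879, minus) face each other across 87.6 kb. Fads2 (ENSMUSG00000024665, chr19:10062765-10101746, minus) and Fads1 (ENSMUSG00000010663, chr19:10182888-10196877, plus) start back to back, with 81.1 kb between their starts. Elovl1 (ENSMUSG00000006390) lies at chr4:118428093-118432953, Elovl5 (ENSMUSG00000032349) at chr9:77917364-77984519 and Elovl6 (ENSMUSG00000041220) at chr3:129532355-129638495, all on the plus strand.

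Promoters were available from RefSeq (GRCm38.p6) for 7 of the 10 genes, with an additional one for Elovl1. The window of Acaca ends at chr11:84195437, inside the gene, whose annotated start on the plus strand is 84129672. The sequence before that annotated start was not searched. The windows of 250 bases before the start were searched on both strands for 4 motifs of factors known to act on lipogenic genes. CCAAT, the box bound by NF-Y, was present in 33.8% of 32851 promoters of the genome and in those of Fasn (3 matches), Elovl5 (2) and Elovl1 (1). GGGCGG, the GC box of Sp1-type factors, was present in 32.7% of all promoters and in those of Elovl1 (5 matches in the promoter shown and 2 in the other), Acly (4) and Fads2 (1). CACGTG, an E-box, was present in 6.02% of all promoters and once in that of Elovl5. TCACNCCAC, a sterol regulatory element, was present in 1.05% of all promoters and in none of the 8 windows searched, which says only that these letters are not there. The last 120 bases before the start are shown for the 4 genes whose promoters carried several boxes near the start, in the direction of the gene, with CCAAT and GGGCGG boxes of either strand in capitals. In Fasn the last 2 boxes share letters, as do a GC box and the CCAAT box of Elovl1.
Fasn, chr11:120824548-120824667, minus strand: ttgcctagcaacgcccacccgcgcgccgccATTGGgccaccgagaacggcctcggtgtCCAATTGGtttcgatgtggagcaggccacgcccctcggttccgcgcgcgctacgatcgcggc
Acly, chr11:100528001-100528120, minus strand: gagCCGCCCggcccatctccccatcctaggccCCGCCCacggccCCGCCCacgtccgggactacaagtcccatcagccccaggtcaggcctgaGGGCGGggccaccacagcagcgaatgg
Elovl1, chr4:118427973-118428092, plus strand: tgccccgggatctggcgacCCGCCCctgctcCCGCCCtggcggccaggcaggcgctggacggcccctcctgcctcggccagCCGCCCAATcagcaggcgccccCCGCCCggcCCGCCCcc
Elovl5, chr9:77917245-77917364, plus strand: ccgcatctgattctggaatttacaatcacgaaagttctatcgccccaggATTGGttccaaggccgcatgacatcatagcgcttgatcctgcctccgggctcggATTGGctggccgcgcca

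The enzyme transcripts were present at very unequal levels, and Scd1 had the largest share of the pool in every library. On a scale of CPM per kb of exon, Scd1 stood at 810 ± 368 in controls against 786 ± 404 in the libraries labelled Glut1-KO (n = 5 each, SD). It ranked between place 11 and place 138 of 15761 genes in a library. Elovl1 (151 ± 76.9 CPM per kb in controls), Scd2 (143 ± 7.25), Fasn (130 ± 35.5) and Acly (103 ± 18.3) followed, and the control libraries of neighbours in this order overlapped. Elovl5 was lower, at 64.4 ± 21.4 CPM per kb in controls. Below it, with no overlap in either group, came Fads1, the desaturase of late polyunsaturated intermediates, at 14.5 ± 3.69. Acaca (7.77 ± 3.53), Fads2 (6.02 ± 1.81) and Elovl6 (5.27 ± 2.03) closed the order with overlapping ranges. The length of a gene was that of all its annotated exons joined, 17.07 kb for Acaca, which can exceed that of its mRNA. Of the 85-base stretches of Acaca, 25.5% also occur in other genes. The effect of both on its place in the order was not tested. In the libraries labelled Glut1-KO, Scd1 did not overlap with Elovl1, and Scd2 (165 CPM per kb) and Fasn (156) ranked above Elovl1 (126).

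**Figure D1:**
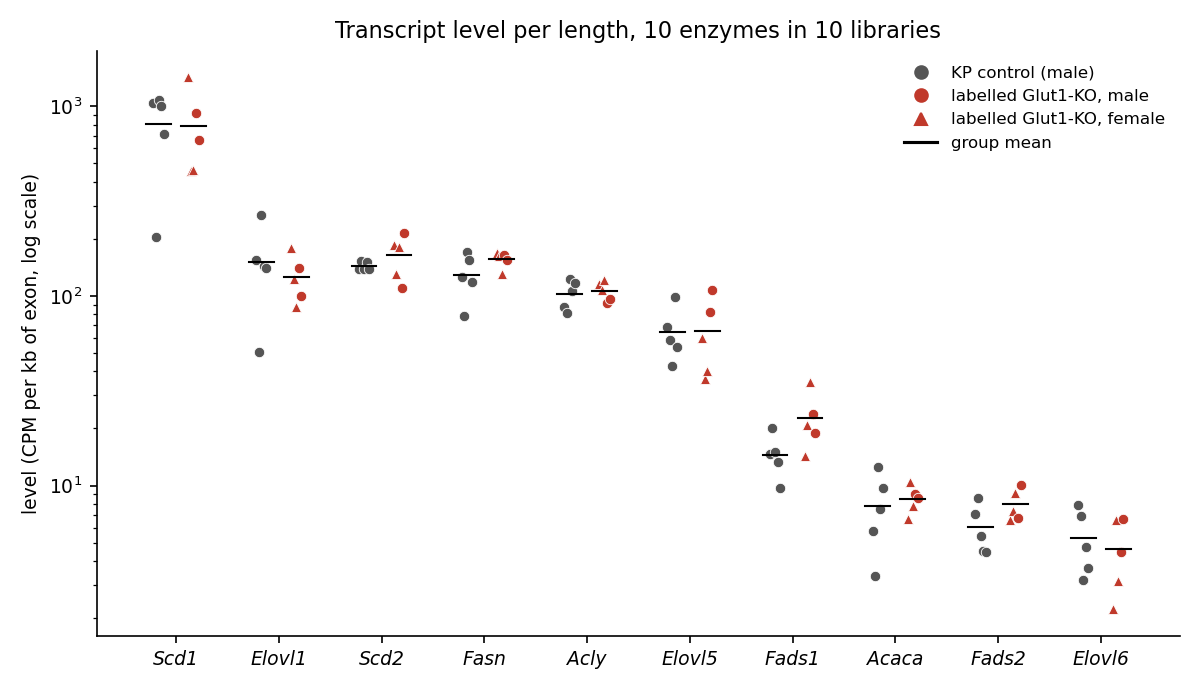
Level of each enzyme in CPM per kb of exon (log axis), by gene in the order of control means, with 1 point per library and a bar at each group mean. Scd1 averaged 810 in controls against 786 in the libraries labelled Glut1-KO, whereas Acaca, Fads2 and Elovl6 stayed at or below 12.5 in every library.

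No enzyme passed the test between the groups. By limma with Benjamini-Hochberg adjustment over all genes, 0 of 10 enzymes and 0 of 15922 genes (0%) were called, the smallest adjusted p over all genes being 0.23. The edgeR quasi-likelihood test called 0 genes (0%), and DESeq2 called 210 of 15847 (1.33%), of which 0 were enzymes of this group. At an unadjusted p below 0.05, limma gave 1 of the 10 enzymes, Fads1, which was higher, against 1223 genes in either direction (7.68%) and 583 higher ones (3.66%). Of the 10 enzymes 7 had a higher and 3 a lower fitted level in the libraries labelled Glut1-KO. Their median log2 fold change was 0.10, beside −0.00492 over all genes tested. Against controls, the female libraries labelled Glut1-KO gave 0 enzymes by limma where 0.0691% of genes passed the adjusted threshold, the male ones 0 where 0.0188% passed, and female against male 0 where 0.0502% passed. The groups overlapped for all 10 enzymes, where 1.85% of genes tested did not overlap. The enzyme values rested on 583 counts (Fads2) to 286031 counts (Scd1) in a library. The 95% intervals held fold changes beyond 2-fold for Scd1, Elovl6 and Fads1.

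**Figure D2:**
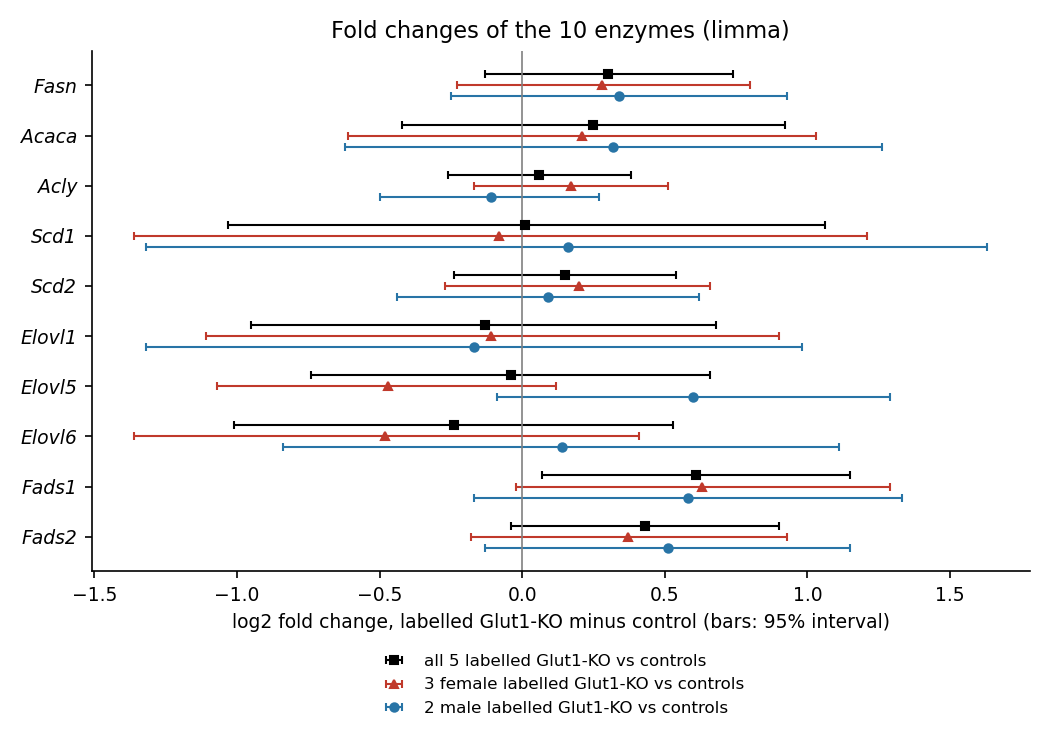
Log2 fold change of each enzyme with its 95% interval (limma), for all 5 libraries labelled Glut1-KO against controls (black) and for the 3 female (red) and 2 male (blue) ones separately. Only the black interval of Fads1, from 0.07 to 1.15, lies to 1 side of 0, and the female and male values of Elovl5, Acly, Scd1 and Elovl6 lie on opposite sides of it.

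The 3 enzymes that lead from citrate to palmitate did not pass the test between the groups. Acly, which supplies the acetyl-CoA, had the smallest SD within groups of the 10 enzymes when both groups were pooled. In controls alone Scd2 varied less (coefficient of variation 5.06% against 17.7% for Acly). In the libraries labelled Glut1-KO alone Fasn varied less (9.73% against 11.9%). Its level was 461, 428, 650, 559 and 618 CPM in controls 1 to 5 and 614, 564, 641, 487 and 506 in Glut1-KO 1 to 5. The libraries labelled Glut1-KO lay within the wider control range, and the log2 fold change was 0.06 (SE 0.14, 95% interval −0.26 to 0.38, limma adjusted p = 0.941). Its SD within groups on the log2 scale, 0.22, was smaller than the median of all genes tested, 0.35.

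Acaca, which makes malonyl-CoA and is held to be the committed step, stood at 98.6, 57.1, 214, 129 and 165 CPM in controls against 114, 180, 134, 153 and 147 in the libraries labelled Glut1-KO. The lowest and the highest library were both controls, replicates 2 and 3. The log2 fold change was 0.25 (SE 0.30, 95% interval −0.42 to 0.92, limma adjusted p = 0.865), and without control replicate 2 it was −0.01. Of the stretches of 85 bases, the length of a read, in the exons of Acaca, 25.5% also occur in other annotated genes, nearly all of them in Gm5182 (4340 of 4397), so reads of Acaca may have been split or dropped in counting.

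Fasn, the fatty acid synthase, gave 1384, 861, 1865, 1699 and 1292 CPM in controls. The libraries labelled Glut1-KO gave 1852, 1775, 1434, 1808 and 1686. They fell within the control range and closer together, with means of 1420 ± 389 in controls and 1711 ± 166 (SD, n = 5 each). The log2 fold change was 0.30 (SE 0.20, 95% interval −0.13 to 0.74, limma adjusted p = 0.746), and the exact 2-sided permutation test over 252 assignments gave p = 0.151. Without control replicate 2, the lowest library, the controls averaged 1560 ± 268 CPM (SD, n = 4) and the log2 fold change was 0.15.

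The stearoyl-CoA desaturases differed from each other in how much they varied. Scd1 was found at 5108, 999, 5278, 4914 and 3516 CPM in controls against 6963, 2234, 2248, 4519 and 3266 in the libraries labelled Glut1-KO. The highest library, Glut1-KO 1, had 6.97 times the level of the lowest, control replicate 2, and libraries of both groups spanned the range between them. The mean levels were 3963 ± 1798 and 3846 ± 1979 CPM, and the log2 fold change was 0.01 (SE 0.48, 95% interval −1.03 to 1.06, limma adjusted p = 0.995). Controls 1, 2 and 5, which share a name number, held both the lowest control level and one of the highest. The SD of Scd1 within groups, 0.87 on the log2 scale, exceeded that of 85.7% of genes tested. Control replicate 2 was also the library with the lowest summed AT2 markers, and the part of this in its Scd1 level was not tested. Without that library the log2 fold change was −0.41.

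Scd2, the neighbour of Scd1 and the isoenzyme known from brain and from developing skin, was even across controls and uneven across the libraries labelled Glut1-KO. Controls had 755, 829, 754, 824 and 753 CPM, a coefficient of variation of 5.06%. Libraries labelled Glut1-KO had 1016, 711, 994, 600 and 1174 CPM, a coefficient of variation of 26.3%. Of these 3 lay above all controls and 2 below all controls, and the 2 male ones, replicates 4 and 5, gave the lowest and the highest value. The log2 fold change was 0.15 (SE 0.18, 95% interval −0.24 to 0.54, limma adjusted p = 0.857), 0.29 without Glut1-KO 4 and 0.06 without Glut1-KO 5, and the difference in spread was not tested. Of the 85-base stretches of their exons, 2.95% for Scd1 and 1.41% for Scd2 also occur in other genes, among them the Scd paralogues.

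Scd1 made up 81 ± 13.4% of the summed per-length level of Scd1 and Scd2 in controls against 80.6 ± 7.92% in the libraries labelled Glut1-KO (n = 5 each, SD). Control replicate 2, at 57.4%, stood apart from the other controls, at 83.9% to 88.7%. The difference between the groups, −0.454 percentage points, was −6.37 without that library. Among all 10 enzymes the share of Scd1 was 53.2 ± 12.9% in controls against 51.8 ± 10.3% in the libraries labelled Glut1-KO. It ran from 30.8% in control replicate 2 to 65.8% in Glut1-KO 1, and the difference between the groups went from −1.44 to −7.06 percentage points without control replicate 2. All 10 enzymes together took 3686 to 11365 CPM, or 0.369% to 1.14% of the TMM-scaled size of a library.

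**Figure D3:**
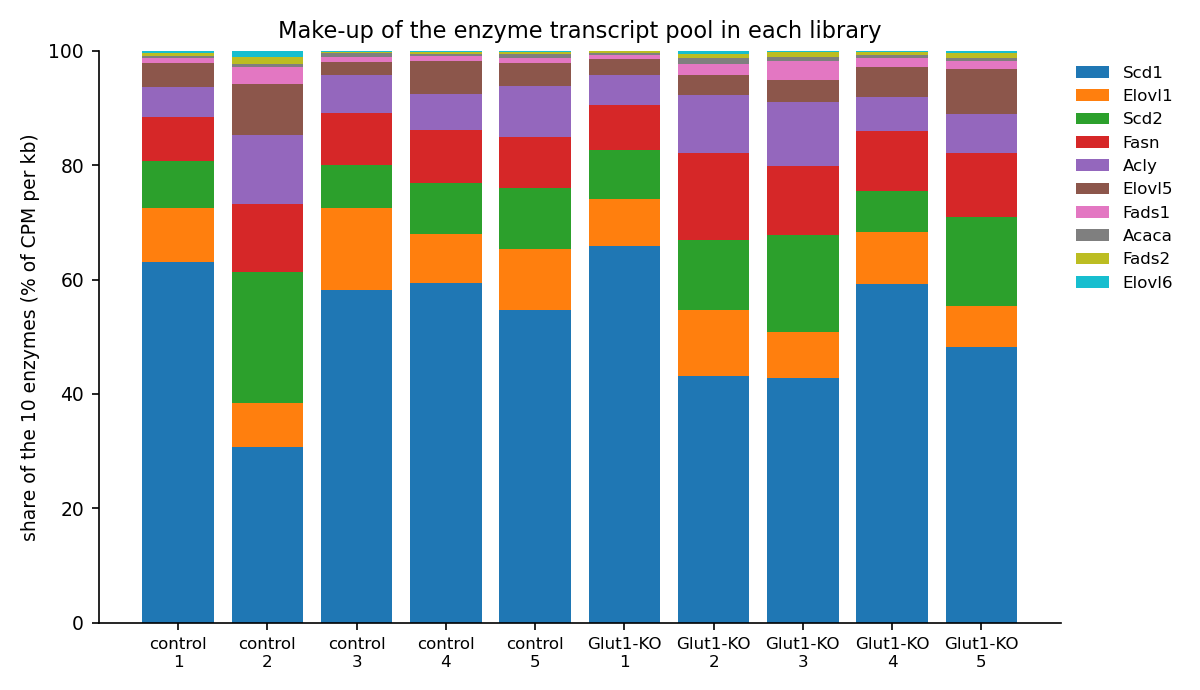
Make-up of the enzyme pool in each library, as the share of each enzyme (percent of summed CPM per kb, stacked to 100). Scd1 took 30.8% in control replicate 2 and up to 65.8% in Glut1-KO 1, with no separation of the groups.

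Of the elongases, Elovl6, which extends palmitate to stearate, was the scarcest, at 50.5, 44.3, 20.5, 30.5 and 23.6 CPM in controls. The libraries labelled Glut1-KO had 14.3, 42.1, 20.3, 28.5 and 42.6 CPM. Both groups mixed low and high libraries, and the log2 fold change was −0.24 (SE 0.35, 95% interval −1.01 to 0.53, limma adjusted p = 0.889). Without Glut1-KO 1, the lowest library, it was −0.00, and without control replicate 1, the highest, −0.08. In the 3-group fit the male libraries labelled Glut1-KO differed from controls by 0.14 and the female ones by −0.48, neither past the threshold (limma adjusted p = 0.935 and 0.593).

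Elovl1, which makes very-long-chain saturated and monounsaturated fatty acids for sphingolipids, varied almost as widely as Scd1. Controls stood at 420, 138, 727, 393 and 381 CPM and the libraries labelled Glut1-KO at 487, 336, 238, 383 and 273. Again control replicate 2 was the lowest of all libraries and control replicate 3 the highest, 5.28 times apart. The log2 fold change was −0.13 (SE 0.37, 95% interval −0.95 to 0.68, limma adjusted p = 0.948), −0.47 without control replicate 2 and 0.12 without control replicate 3.

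Elovl5, which lengthens polyunsaturated chains, was alike in the group means. Inside the group labelled Glut1-KO the female and male libraries did not overlap, but their difference did not pass the threshold. Controls had 242, 205, 150, 348 and 189 CPM. The female libraries labelled Glut1-KO had 212, 129 and 142 CPM and the male ones 288 and 380, and the controls, all male, covered most of the span of both. The 5 against 5 comparison gave a log2 fold change of −0.04 (SE 0.32, 95% interval −0.74 to 0.66, limma adjusted p = 0.985). The female libraries were lower than the male ones by a log2 difference of −1.07 (SE 0.34, 95% interval −1.82 to −0.32), with an unadjusted p of 0.00987 by limma and an adjusted p of 0.158, and 18.6% of all genes tested had such an unadjusted p below 0.05 in that contrast. Within the male libraries, the log2 fold change against controls was 0.60 (limma adjusted p = 0.512 in the 3-group fit). Acly split the same libraries the other way, from 564 to 641 CPM in the female and from 487 to 506 in the male ones, with a log2 difference of 0.29 (SE 0.19, limma adjusted p = 0.423). These 2 of 10 enzymes did not overlap between female and male libraries labelled Glut1-KO, as was the case for 40.8% of all genes tested. The male ones overlapped with the controls in all 10 enzymes, where 17.1% of genes tested did not. The same libraries lay apart in Slc2a1, so sex and Slc2a1 level cannot be told apart here, and Glut1-KO 4 and 5 share a name number.

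The front-end desaturases showed the highest fold changes among the 10 enzymes. Fads1, which forms arachidonate, was found at 70.5, 96.0, 72.3, 63.9 and 46.7 CPM in controls and at 69.4, 100, 170, 115 and 91.0 in the libraries labelled Glut1-KO. Of the latter 3 lay above every control, and Glut1-KO 1 and 5 lay among the controls. Means were 69.9 ± 17.8 and 109 ± 37.8 CPM (SD over 5 libraries), which gave a log2 fold change of 0.61 (SE 0.24, 95% interval 0.07 to 1.15). The unadjusted p by limma was 0.0293 and the adjusted p 0.61, and the exact 2-sided permutation test gave p = 0.0635, so the difference does not hold after correction. In the 3-group fit the value was 0.63 for the female and 0.58 for the male libraries labelled Glut1-KO (limma adjusted p = 0.354 and 0.567).

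Fads2, the enzyme before Fads1 in the same pathway and its neighbour in the genome, had 23.3, 28.4, 17.9, 14.8 and 14.6 CPM in controls. The libraries labelled Glut1-KO had 21.7, 24.1, 30.1, 22.3 and 33.3 CPM, 2 of them above every control. The log2 fold change was 0.43 (SE 0.21, 95% interval −0.04 to 0.90, limma adjusted p = 0.678), and the exact 2-sided permutation test gave p = 0.0952. In control replicate 2 both Fads genes had their highest control level, whereas Acly, Acaca, Fasn, Scd1 and Elovl1 had their lowest level of all libraries there. Fads1 made up 70.8 ± 3.12% of the per-length sum of the pair in controls against 73 ± 6.05% in the libraries labelled Glut1-KO. This difference of 2.24 percentage points was 4.2 without Glut1-KO 5 and 0.634 without Glut1-KO 3. Leukocyte markers had a higher fitted level in the libraries labelled Glut1-KO for 12 of 14 genes (median log2 fold change 0.87, summed level 320 to 468 CPM in controls and 344 to 595). Of the 14, 8 had an unadjusted p below 0.05 by limma and 6 did not overlap between the groups, all higher, where 1.85% of genes tested did not overlap. Ptprc, the gene of CD45, had 2.3 to 3.26 CPM in controls and 5.05 to 10.1 in the libraries labelled Glut1-KO. None of the 16 listed was at 0 in all libraries and Marco and Cd3e were below 1 CPM. Endothelial markers were higher for 12 of 12 (median 0.64, summed level 135 to 496 CPM in controls and 201 to 648) and ciliated cell markers lower for 10 of 10 (median −0.95, summed level 12.5 to 299 CPM in controls and 16.9 to 64.8), with no marker past the threshold by limma. DESeq2 called 6 leukocyte markers, Ptprc among them, and the ciliated cell marker Foxj1. Their part in the Fads1 and Fads2 levels was not tested.

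Adipocytes express many of these enzymes strongly, so adipocyte markers were read beside them. Of 12 markers 7 were below 1 CPM in every library (Adipoq, Plin1, Lep, Retn, Cfd, Ucp1 and Adrb3), Lep with 0 counts throughout. The other 5 were Cidec (up to 8.13 CPM), Plin4 (up to 2.08), Cidea (up to 1.9), Lpl (3.16 to 24) and Pnpla2, a lipase of many tissues, which at 62.9 to 112 CPM made up most of the sum. The summed level of the list was 80.4 to 119 CPM in controls and 79 to 114 in the libraries labelled Glut1-KO, and the part of adipocytes in the enzyme levels was not tested.

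The enzymes did not vary as 1 block across libraries. Over the 45 pairs of enzymes, 20 correlations of log2 CPM were positive and 25 negative, and 1 pair passed after adjustment over the 45 permutation tests of r. That pair was Scd1 and Elovl1, with Pearson's r = 0.89 over 10 libraries (permutation p = 0.00078, adjusted p = 0.0351) and Spearman's rho = 0.95 (permutation p = 7e-05, adjusted p = 0.00315). Without the 2 libraries farthest from the median of Scd1, control replicate 2 and Glut1-KO 2, r was 0.80, and within the 7 male libraries it was 0.91. Libraries that share a name number may not be independent, which these p-values assume.

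Fasn gave r = 0.78 with Acaca (permutation p = 0.0196), 0.76 with Elovl1 (permutation p = 0.015) and 0.75 with Scd1 (permutation p = 0.0195), none past the threshold (permutation adjusted p = 0.134 each). Spearman's rho for these pairs was 0.49, 0.66 and 0.59 (permutation p = 0.156, 0.044 and 0.0805). These 3 relations rested in part on control replicate 2, without which r was 0.33, 0.40 and 0.32. Among the other pairs of Fasn, Acaca, Acly, Scd1 and Elovl1, leaving out that library took Acaca and Scd1 from r = 0.48 (rho = 0.02) to −0.32, Acly and Scd1 from 0.39 to −0.12 and Fasn and Acly from 0.51 to 0.04. It took Acaca and Acly from 0.68 to 0.44, Acaca and Elovl1 from 0.69 to 0.26 and Acly and Elovl1 from 0.55 to 0.21. Scd1 and Elovl1 gave 0.75 without it. Fads1 and Fads2 gave r = 0.75 (permutation p = 0.0123, adjusted p = 0.134), rho = 0.73 (permutation p = 0.0206), and r = 0.59 without the 2 farthest libraries. Scd1 and Scd2, although neighbours and isoenzymes, gave r = −0.05 (permutation p = 0.881) and rho = 0.02 (permutation p = 0.973). Acly and Elovl6 ran in opposite directions, with r = −0.80 (permutation p = 0.00733, adjusted p = 0.134) and rho = −0.82 (permutation p = 0.00557). Here r was −0.69 without the 2 libraries farthest from the median of Acly and −0.87 within the male libraries.

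**Figure D4:**
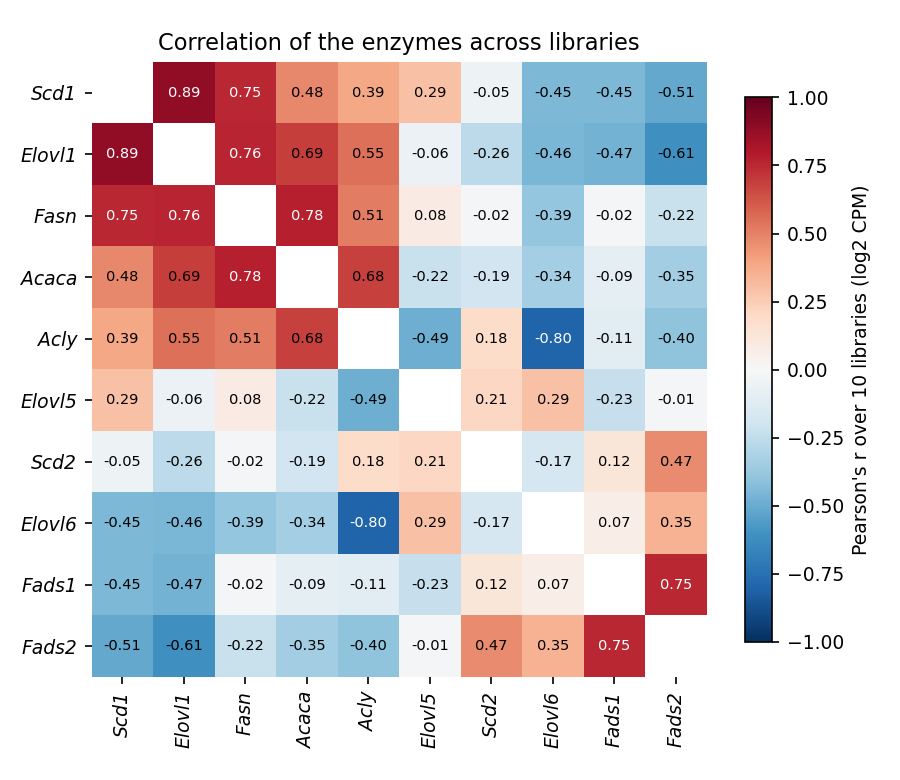
Pearson's r of log2 CPM over the 10 libraries for each pair of enzymes, from −1 (blue) to 1 (red). The highest value is that of Scd1 and Elovl1, 0.89, the 1 pair that passed adjustment, and the lowest is that of Acly and Elovl6, −0.80.

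**Figure D5:**
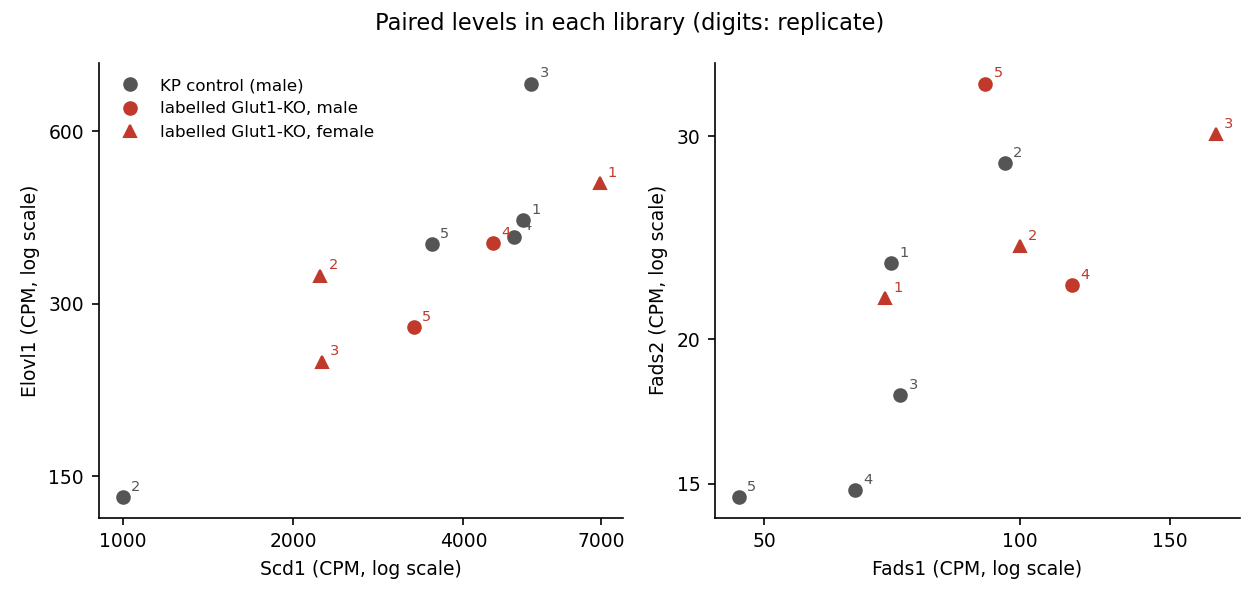
Level of Elovl1 against Scd1 (left) and of Fads2 against Fads1 (right) in CPM on log axes, 1 point per library, with digits giving the replicate. Control replicate 2 is lowest in both Scd1 (999 CPM) and Elovl1 (138 CPM), and 3 libraries labelled Glut1-KO lie above every control in Fads1.

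Among 15718 genes outside the lists, those whose pattern over the 10 libraries was most like that of Fasn were Aldh1a7 (r = 0.94), Aamdc (0.93), Azin1 (0.92), Rasip1 (0.92) and Lipe (0.91). Without the 2 libraries farthest from the median of Fasn these values were 0.52 to 0.74. Those most like Scd1 were Coa3 (0.95), Gabarap (0.95), Ly6i (0.94), Wbp2 (0.93) and Pink1 (0.93), with 0.77 to 0.87 when the 2 farthest libraries were left out. The genes were picked for this likeness among all those compared, so no test applies to it.

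The wider pathway gave no call by limma either. Of 20 related enzymes tested, among them further elongases, Scd and acetyl-CoA carboxylase paralogues, 8 had a higher and 12 a lower fitted level in the libraries labelled Glut1-KO (median log2 fold change −0.07), and 0 passed in either direction. Acacb, the carboxylase of the mitochondrial surface whose malonyl-CoA restrains fatty acid oxidation, had the lowest p of this list. It averaged 19.8 ± 4.95 CPM in controls against 30.8 ± 5.33 in the libraries labelled Glut1-KO (SD over 5 libraries), giving a log2 fold change of 0.67 (SE 0.19, limma adjusted p = 0.432). Cyb5r3, the reductase that passes electrons towards the desaturases, gave 0.32 (limma adjusted p = 0.718). Scd3, a further desaturase, was at or below 0.644 CPM in all libraries but Glut1-KO 1, with 7.43 CPM.

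Of 14 genes that supply acetyl-CoA and NADPH, 9 were higher and 5 lower (median log2 fold change 0.14), with 0 past the threshold. Mpc2, a subunit of the mitochondrial pyruvate carrier, had 39.5 ± 4.06 CPM in controls against 55.1 ± 11.4 in the libraries labelled Glut1-KO, 4 of them above every control (log2 fold change 0.46, limma adjusted p = 0.482). Idh1, the cytosolic isocitrate dehydrogenase that yields NADPH, gave 0.40 (limma adjusted p = 0.531), and Acss1, a mitochondrial acetyl-CoA synthetase, gave 0.39 (limma adjusted p = 0.674).

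Of 22 regulators of lipogenesis tested, 12 were higher and 10 lower (median log2 fold change 0.01), and 0 passed. Srebf1, the gene of SREBP-1, averaged 184 ± 17.4 CPM in controls against 197 ± 38.7 in the libraries labelled Glut1-KO (log2 fold change 0.08, limma adjusted p = 0.919). Srebf2, which encodes the regulator of the cholesterol arm, gave 0.16 (limma adjusted p = 0.787), and Mlxipl, the gene of the glucose-responsive factor ChREBP, was scarce at 1.21 ± 0.699 and 0.945 ± 0.401 CPM. These 3 were named after their values had been seen. By the rule, Mbtps2, the protease that releases SREBP within the Golgi membrane, gave −0.34 (limma adjusted p = 0.644), Insig2, which retains the SREBP complex, 0.29 (limma adjusted p = 0.756), and Mtor −0.16 (limma adjusted p = 0.77).

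Of 14 genes that handle acyl-CoA, 9 were higher and 5 lower (median log2 fold change 0.14), with 0 past the threshold by limma and 1, Dbi, by DESeq2 (adjusted p = 0.0267), which called 1.33% of all genes. Dbi, the acyl-CoA binding protein, was the only gene of the pathway lists whose groups did not overlap, with 82.6 to 97.1 CPM in controls and 98.5 to 152 in the libraries labelled Glut1-KO (1.85% of all genes tested did not overlap). Its log2 fold change was 0.47 (SE 0.12, limma adjusted p = 0.395), and the exact 2-sided permutation test gave p = 0.00794, the smallest that 252 assignments allow. Leukocyte and endothelial markers had a higher fitted level in the libraries labelled Glut1-KO for 12 of 14 and 12 of 12 genes, 0 of them past the threshold by limma. By the measures that set Dbi apart, 6 of the 14 leukocyte markers did not overlap between the groups and DESeq2 called 6 (Ptprc with adjusted p = 2e-06). No endothelial marker was without overlap or called by DESeq2. The part of these cells in the Dbi level was not tested. Acbd3 gave 0.23 (limma adjusted p = 0.655). Fabp4, a fatty acid carrier of adipocytes, macrophages and capillary endothelium, gave 1.79 (limma adjusted p = 0.688) with 73 CPM in Glut1-KO 5 and at most 22.8 in the other libraries.

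In the cholesterol arm of SREBP, 13 of 20 genes were higher and 7 lower (median log2 fold change 0.04), and 0 passed. Its genes with the lowest p were Pmvk (log2 fold change 0.35), Idi1 (0.77) and Sqle (0.36), which encode mevalonate and squalene enzymes, with limma adjusted p-values of 0.732, 0.758 and 0.805.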

How the data were processed

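The values deposited were unnormalized counts of reads for each Ensembl gene. The authors prepared TruSeq stranded mRNA libraries, sequenced single-end reads of 85 nucleotides and aligned them to mm10 with HISAT2. The submitters' processing notes also name bcl2fastq 2.17, cutadapt 1.4.2, featureCounts 1.4.4 and edgeR. The annotation release and the use of strand in counting were not given in the sources used here. The 10 single files equalled the combined table. A deposited table of log2 values was not used.

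Counts were filtered with filterByExpr (minimum count 10, minimum total 15) in edgeR 4.0.16 and given TMM factors. The voom transform (prior count 0.5) and the linear fit came from limma 3.58.1 under R 4.3.3, with the group and no covariate. Benjamini-Hochberg adjustment ran over 15922 genes, with a threshold of 0.05. A 3-group fit separated female and male libraries labelled Glut1-KO. Single genes also had an exact permutation test. Correlations used 100000 permutations. Exon lengths came from GENCODE M21 (GRCm38, the assembly of mm10), which held 96.6% of the identifiers. The fit was tested on simulated data. Totals of 35.3 to 49.8 M counts set the depth.

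The enzymes and the gene lists were chosen with earlier results of these data known. Named genes were all 10 enzymes, the targeted gene, per pathway list the 3 tested genes with the lowest limma p, and the 5 genes most like Fasn and Scd1 by r. Alternatives were the edgeR quasi-likelihood test, DESeq2 1.42.0, other scalings, filters, weights and depth, sex, pairing, shared name numbers and leaving out libraries, 25 in all. 1 of them, without control replicate 2 and Glut1-KO 4 and 5, was added after seeing the data.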

Additional observations from a re-analysis of the deposited data

Results flagged for a closer look

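In 72 groups of 5 libraries, 8 held a library whose gap to its nearest neighbour exceeded the limit of 0.71 of the group's range. For independent values with a normal spread, chance gives about 1 in 20. The values here were CPM, percentages and totals, and some groups share values, so that rate is only a rough guide. Control replicate 2 accounted for 3 of the 8. Its total was 49.8 M counts against 40.1 to 41.4 in the other controls, Scd1 made up 57.4% of its Scd1 and Scd2 level against 83.9% to 88.7%, and 30.8% of the level of all 10 enzymes against 54.8% to 63.1%. Among the genes of the wider pathway, Cyb5r3 stood at 706 CPM in Glut1-KO 4 against 438 to 506 in the other libraries labelled Glut1-KO, and Scd3 at 7.43 CPM in Glut1-KO 1 against 0.285 to 0.644. Acss1 had 87 CPM in control replicate 3 against 71.4 to 75.5 in the other controls. Fabp4 stood apart in both groups, with 9.21 CPM in control replicate 3 against 1.87 to 3.68 and 73 CPM in Glut1-KO 5 against 2.87 to 22.8.

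For Acly and Elovl5, every female library labelled Glut1-KO lay on 1 side of the control mean and both male ones on the other. The female minus male difference was 0.29 for Acly and −1.07 for Elovl5 on the log2 scale, and neither passed the test of that difference (limma adjusted p = 0.423 and 0.158).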

How the results depend on the processing

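No enzyme was called under any of the 25 alternatives. The count over all genes, 0 as reported, was 210 with DESeq2, 3 with sex as a covariate, 1 with male libraries only, 9 for the female libraries labelled Glut1-KO against controls, 2 with counts summed over shared name numbers and 6 without control replicate 2 and Glut1-KO 4 and 5. Leaving out 1 library at a time gave 0 to 1. Replicate numbers did not pair the libraries (correlation of same-numbered libraries from −0.132 to 0.197, number 4 alone matching itself best), and with the replicate block the count was 0. Fads1 stayed at 0.44 to 0.77 on the log2 scale (adjusted p 0.292 to 0.919) and had an unadjusted p below 0.05 in 17 of 25 alternatives. The alternatives reuse the same libraries and are not independent of each other. By limma the unadjusted p was 0.116 with sex as a covariate, 0.0579 in the male libraries alone and 0.0994 with summed name numbers. Fads2 stayed at 0.33 to 0.59, Fasn at 0.13 to 0.42 and Scd2 at 0.06 to 0.29.

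The other enzymes changed sign in places, always short of the threshold. Scd1 was −0.04 with the edgeR quasi-likelihood test and with DESeq2, −0.07 for the female libraries, −0.01 with name number as a random block, −0.19 with summed name numbers, −0.14 with quality weights and −0.50 without the 3 libraries above, where Acaca was −0.05. Elovl5 was 0.02 with both count tests. With sex as a covariate and in the male libraries alone, Acly was −0.11, Elovl5 0.60, Elovl6 0.14 and Slc2a1 0.06. Leaving out 1 library gave −0.41 to 0.18 for Scd1, −0.01 to 0.46 for Acaca, −0.02 to 0.13 for Acly, −0.47 to 0.12 for Elovl1, −0.40 to −0.00 for Elovl6 and −0.24 to 0.14 for Elovl5. The causes were not tested. Elovl6 was not tested under the filter of mean TPM of at least 20. With all libraries thinned to 35.3 M counts, the count over all genes was 0, and lower depths were not tried.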

Other observations

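Markers of the cell types that the CD45-negative fraction could hold were counted beside the enzymes, and none passed the threshold by limma (DESeq2 called Krt15 of the club cell list and Foxj1 of the ciliated cell list, besides 6 leukocyte markers). AT2 markers were higher for 10 of 12 in the libraries labelled Glut1-KO (median log2 fold change 0.15), AT1 markers for 6 of 10 (0.11) and epithelial tumour markers for 3 of 8 (−0.05). Club cell markers were lower for 7 of 10 (−0.75), fibroblast markers for 9 of 11 (−0.21) and proliferation genes for 11 of 12 (−0.22). Summed club cell markers were lowest in control replicate 2, at 2116 CPM against at least 5952 in the other controls, as were the summed ciliated cell markers, at 12.5 CPM against at least 45.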
